A study of Homo sapiens with 15 samples.

Results

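The p53 target genes described here are 31 genes that the transcription factor p53 is known to activate, given as a list of symbols. All 31 matched 1 identifier each among the 60721 genes listed, and all 31 passed the filter on low counts that left 17457 genes for testing. p53 is kept scarce in unstressed cells by the ubiquitin ligase MDM2, which is itself a p53 target, so that the pathway limits its own output. Damage to DNA, ribosome stress or an oncogenic signal frees p53, which then binds paired copies of a short palindromic element and raises genes for cell-cycle arrest, cell death, DNA repair and metabolic control. RAS signalling, which the NF1 protein neurofibromin lowers, is one of the signals known to engage p53 in epithelial cells.

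Poly(A) RNA was sequenced from MCF-10A, a non-tumorigenic human mammary epithelial line (labelled MCF10) that is known to have lost the CDKN2A locus. There were 5 genotypes with 3 biological replicates each: parental cells, empty-vector cells with NF1 intact, and cells in which NF1 was targeted with guide RNA 1 (NF1-g1), guide RNA 2 (NF1-g2) or both (NF1-g1/g2). No group received a treatment, and all groups grew in the same medium with horse serum, EGF, hydrocortisone, cholera toxin and insulin. The labels do not say whether any line was a clone or a pool, or how the vector and the guides were delivered. Each genotype is 1 population, so an effect of the vector cannot be told apart from a property of the empty-vector population, and p-values measure the spread between replicates of these populations.

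NF1 was read first, as counts scaled to the library total (CPM), as a check of the labels. It stood at 159, 141 and 153 CPM in the parental libraries and at 115, 123 and 133 CPM in the empty-vector libraries. It stood at 43.6, 47.3 and 51.3 CPM with guide 1, at 27.0, 31.4 and 29.8 CPM with guide 2, and at 28.9, 29.4 and 26.0 CPM with both guides. Every edited library was below every unedited library, and the edited mean was lower than the mean of both controls by a log2 fold change of -2.01 ± 0.06 (SE, edgeR quasi-likelihood test, Benjamini-Hochberg adjusted p 4.11e-10). Library totals ran from 46129559 to 78976917 counts. Of 9 epithelial markers, most of them of basal mammary cells, several differed widely between libraries of 1 genotype, TP63, CDH1, KRT14 and EPCAM among them. TP63 was at 0.81 CPM in parental replicate 2 against 37.4 and 19.9 CPM in the other parental libraries, and at 75.8 CPM in guide 2 replicate 2 against 0.05 and 0.07 CPM in the other guide 2 libraries. Over all tested genes guide 2 replicate 2 stood apart from its replicates (correlation of log2 CPM 0.947 with each, against 0.995 between the others), while parental replicate 2 did not (0.979 and 0.988, against 0.987). The numbers of called targets in the empty-vector shift and in the comparisons of the edited mean are also given without both. The summed level of the 9 markers was 2600 to 6577 CPM in parental, 6440 to 11500 CPM in empty-vector, 2235 to 3086 CPM in guide 1, 2530 to 10800 CPM in guide 2 and 3979 to 4438 CPM in both-guide libraries, and its part in the values of the p53 targets was not tested. Of the markers of other cell types, COL3A1, PTPRC, CD3E and CDH5 reached at most 3 counts in any library, while COL1A1, PDGFRB, CD14 and PECAM1 were detected, at most at 20.0, 3.62, 6.95 and 1.99 CPM. The 3 fibroblast markers summed to 9.21 to 16.5 CPM in parental, 13.9 to 20.8 CPM in empty-vector and 4.05 to 8.64 CPM in edited libraries, and their part in the values of the p53 targets was not tested.

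Of the 31 p53 targets, 8 were called higher in empty-vector than in parental cells at an adjusted p under 0.05 and none lower, beside 4.37% of all tested genes called: the death receptor FAS, the AKT repressor PHLDA3, the mitochondrial quality-control gene SPATA18, CYFIP2, SUSD6, the kinase PLK3 and the sestrins SESN1 and SESN2. Their log2 fold changes ran from 0.53 to 0.78, or from 1.45-fold to 1.72-fold. In the edited lines as a group, set against the mean of both controls, 0 of 31 targets were called by edgeR (1.51% of all tested genes), with 6 at an unadjusted p under 0.05 (15.8% of all tested genes). In 3 genes, CYFIP2, SUSD6 and SESN1, the edited mean was called lower than the empty vector (6.43% of all tested genes called), and against parental cells no target was called in the edited mean (0.166%).

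**Figure D1:**
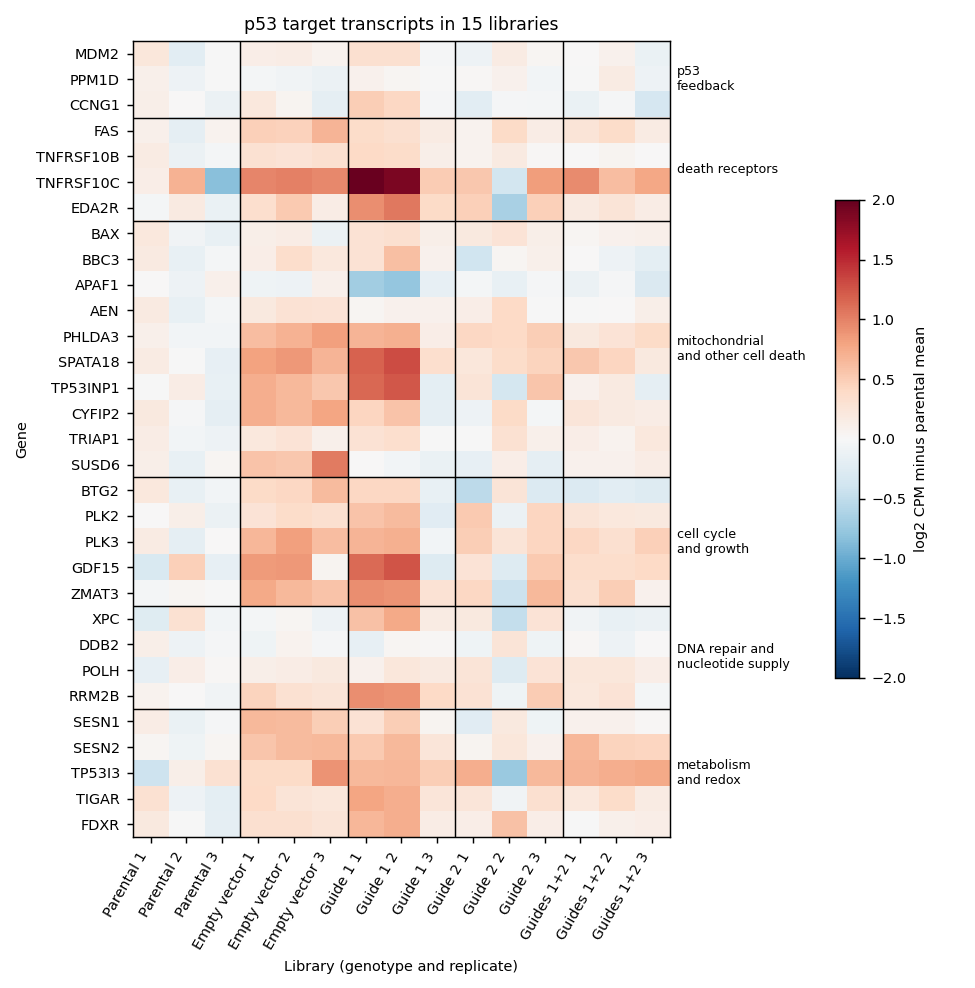
Each row is a p53 target, grouped by role, and each column is a library. Colour is log2 CPM minus the mean log2 CPM of the 3 parental libraries. Red is above the parental mean. The empty-vector columns and guide 1 replicates 1 and 2 are the reddest, while guide 1 replicate 3 is close to the parental columns.

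The empty-vector shift is the comparison of the 2 kinds of NF1-intact cells. Of the 31 targets, 27 had a higher estimate in empty-vector cells at any p, and the median log2 fold change was 0.34, against -0.01 over all 17457 genes. The 8 called targets compare with 4.37% of all tested genes called in either direction and 2.84% called higher in this comparison. At an unadjusted p under 0.05 there were 13 targets, all higher, beside 19.8% of all tested genes in either direction. Every empty-vector library was above every parental library for 18 of the 31 targets, a pattern that 14.1% of all tested genes showed. The reverse, every empty-vector library below every parental library, held for 0 of the 31 targets and for 18% of all tested genes. With parental replicate 2 left out these counts were 21 and 1 (PPM1D), and the shares of all tested genes 20% and 25.1%.

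The edited shift was taken as the mean of the 3 edited lines minus the mean of both controls, a contrast whose weights are orthogonal to those of the first. Orthogonal weights do not take out a difference from parental cells that empty-vector and edited cells share. Estimates of the edited mean were below the empty vector for 22 of 31 targets and above parental cells for 27 of 31. The contrast averages these differences, so a value near 0 can join opposite ones, as for PHLDA3 (0.06, from -0.30 and 0.41). In this contrast edgeR called 0 of 31 targets, against 1.51% of all tested genes. At an unadjusted p under 0.05 there were 6 targets, 2 higher and 4 lower, against 15.8% of all tested genes. DESeq2 called 1 target, SUSD6 (5.32% of all genes), and voom with sample quality weights called 17, with 42% of all genes called under that setting. The median log2 fold change of the targets was 0.06, against 0.01 over all genes, and single estimates ran from -0.38 for SUSD6 to 0.38 for TNFRSF10C. Standard errors of these estimates ran from 0.06 to 0.28, and a missed threshold does not show that levels were equal. No target had every edited library above every unedited library, or every edited library below. Over all tested genes these patterns were seen in 0.0974% and 0.183%. With guide 2 replicate 2 and parental replicate 2 left out there were still 0 such targets, beside 2.36% and 3.56% of all tested genes. Without guide 2 replicate 2, 4 targets were called (SUSD6, BTG2 and SESN1 lower, TP53I3 higher), with 18% of all genes called in that fit. Without parental replicate 2 or without empty-vector replicate 2 SUSD6 alone was called, and without guide 1 replicate 3 APAF1 alone. With guide 2 replicate 2 and parental replicate 2 both left out, an alternative chosen after the data were seen, 8 targets were called, 5 of them higher, with 27.5% of all genes called.

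**Figure D2:**
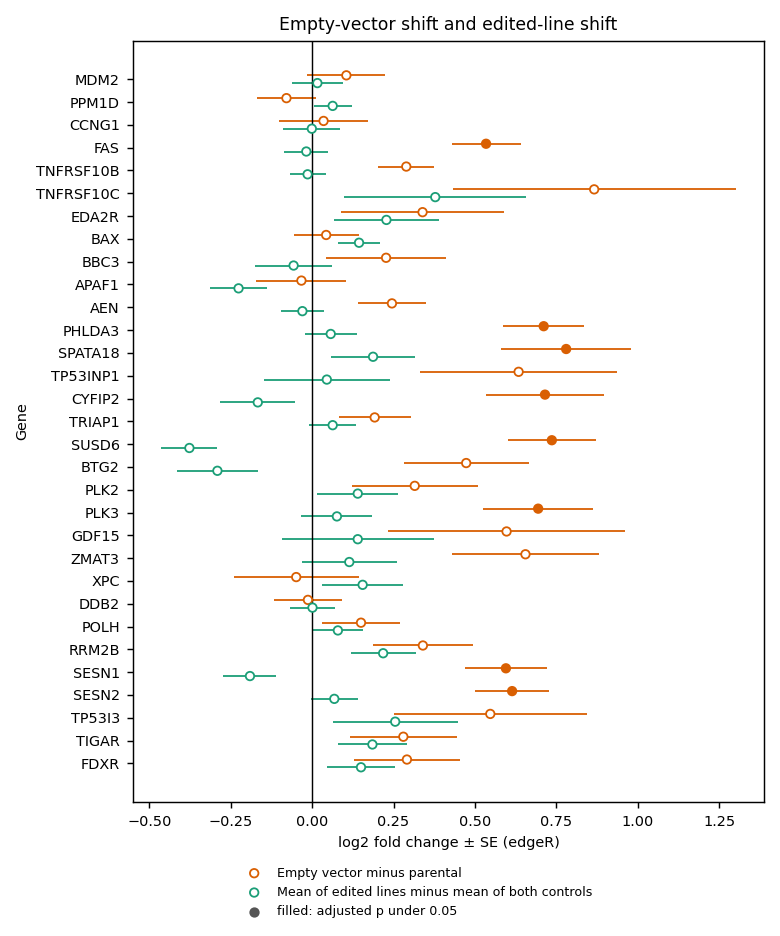
Points are log2 fold changes from the edgeR model and bars are 1 standard error. Orange is empty vector minus parental and green is the mean of the edited lines minus the mean of both controls; filled points have an adjusted p under 0.05. The 8 filled points are all orange and lie between 0.53 and 0.78, and no green point is filled.

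Among the feedback genes, none of 3 was called in the empty-vector shift and their median log2 fold change was 0.04. MDM2 was at 174, 129 and 150 CPM in parental libraries and at 162, 163 and 152 CPM in empty-vector libraries, so the groups overlapped. The log2 difference of MDM2 was 0.10 ± 0.12 (SE). PPM1D, a phosphatase that dephosphorylates p53 and its activating kinases, gave -0.08 ± 0.09, and CCNG1, the cyclin that brings a phosphatase to MDM2, gave 0.04 ± 0.14. In the edited shift these 3 genes lay between 0.00 and 0.06.

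Of 4 death receptors, 1 was called in the empty-vector shift and all 4 had higher estimates (median 0.44). FAS (ENSG00000026103, chr10:88990582-89015785, plus strand), the receptor through which FAS ligand triggers caspases, was at 40.6, 33.8 and 40.4 CPM in parental libraries. It was at 52.3, 51.7 and 58.5 CPM in empty-vector libraries, at 48.4, 46.5 and 42.6 CPM with guide 1, at 39.1, 49.8 and 41.8 CPM with guide 2, and at 45.5, 48.9 and 42.4 CPM with both guides. Every empty-vector library was above all 12 other libraries. The log2 fold change in the empty-vector shift was 0.53 ± 0.11 (SE, edgeR, adjusted p 0.0164), and the edited mean was lower than the empty vector, at an uncalled -0.29 ± 0.08 (edgeR adjusted p 0.0665). The call was lost without parental replicate 2 (edgeR adjusted p 0.0771) or without empty-vector replicate 3 (0.0752). Some FAS exon sequence (8.93%) lies antisense to ACTA2, and whether counting used strand is not given in the sources used here.

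The other death receptors were less settled. TNFRSF10B, the TRAIL receptor DR5, was at 163 to 197 CPM in parental and at 211 to 215 CPM in empty-vector libraries without overlap, with 0.29 ± 0.09 (SE, edgeR adjusted p 0.0741). TNFRSF10C, a decoy receptor for TRAIL, was low everywhere, between 0.35 and 2.59 CPM, and had the widest error (0.87 ± 0.43, edgeR adjusted p 0.295). Of its exon bases, 39.3% are shared with other annotated genes. EDA2R, a receptor for ectodysplasin A2, gave 0.34 ± 0.25 in the same comparison.

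FAS and SESN1 are the 2 called targets with a p53 element in a promoter window, and the windows are shown because p53 acts through such elements. Windows run from 250 bases before to 50 bases after each annotated start (RefSeq, GRCh38.p14), and 26 of the 31 targets matched. Of the 8 called targets 7 had a window, and PHLDA3 had none and was not searched. A full site was taken as 2 copies of the p53 consensus half-site (10 bases each, palindromic, so both strands are covered) at most 13 bases apart, with intact cores and at most 3 mismatches. Capitals mark the paired copies. The FAS stretch (chr10:88991269-88991368, plus strand) lies upstream of one of 3 annotated FAS starts and downstream of the others. The SESN1 stretch (chr6:109008989-109009077, minus strand) ends just upstream of one of 3 annotated SESN1 starts and lies downstream of the others.
FAS: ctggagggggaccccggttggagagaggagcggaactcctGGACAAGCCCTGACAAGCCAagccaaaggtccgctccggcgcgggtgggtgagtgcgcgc
SESN1: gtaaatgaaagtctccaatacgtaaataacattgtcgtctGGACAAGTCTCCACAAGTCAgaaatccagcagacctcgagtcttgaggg
AEN: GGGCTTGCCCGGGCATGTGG
GDF15: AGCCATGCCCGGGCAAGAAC
DDB2: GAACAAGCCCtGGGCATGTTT
The FAS pair begins at -122 from that start with 2 mismatches (a further pairing of its first copy with one at -107 also has 2), and the SESN1 pair at -49 with 3. AEN has its pair at -34 with 2 mismatches, GDF15 at 29 bases past the start with 3, and DDB2 at 6 past the start with a spacer of 1 base and 0 mismatches. Such a full site was found for 5 of the 26 matched targets (19.2%) and for 5.53% of all 27305 genes with a window. A match is a description of letters, and windows this short leave out most of each gene. The 3 genes with a pair and no call, AEN, GDF15 and DDB2, had estimates of 0.24 ± 0.10, 0.60 ± 0.36 and -0.01 ± 0.10 in the empty-vector shift.

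The largest group, 10 genes of mitochondrial and other cell death, held 4 of the 8 called targets, and 9 of the 10 had higher estimates in empty-vector cells (median 0.44). PHLDA3 (ENSG00000174307, chr1:201464383-201469237, minus strand) encodes a pleckstrin-homology protein that competes with AKT for membrane lipid. It was at 44.3, 39.9 and 40.3 CPM in parental libraries and at 63.0, 66.4 and 70.1 CPM in empty-vector libraries. With guide 1 it was at 65.3, 66.2 and 45.2 CPM, with guide 2 at 54.2, 54.5 and 57.4 CPM, and with both guides at 47.6, 49.6 and 53.2 CPM. All 12 libraries that carried the vector or a guide were above the 3 parental ones. The empty-vector shift was 0.71 ± 0.12 (SE, edgeR adjusted p 0.00975), and this call held under every alternative run for it, with adjusted p at most 0.0493. The edited mean was above parental by 0.41 ± 0.10 without passing the test (edgeR adjusted p 0.143). Part of the PHLDA3 exon sequence (19.1%) is shared with AC096677.2.

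SPATA18 (ENSG00000163071, chr4:52051331-52097292, plus strand), also known as Mieap and involved in clearing damaged mitochondrial protein, was at 16.1, 14.4 and 13.1 CPM in parental libraries. It was at 24.9, 26.0 and 22.4 CPM in empty-vector libraries, at 32.6, 35.2 and 18.2 CPM with guide 1, at 16.5, 18.6 and 19.5 CPM with guide 2, and at 21.1, 19.4 and 16.3 CPM with both guides. Replicates 1 and 2 of guide 1 held the highest values of all 15 libraries, and replicate 3 of the same line lay among the other edited libraries. Its empty-vector shift was 0.78 ± 0.20 (SE, edgeR adjusted p 0.0446). The SPATA18 call was lost on leaving out any 1 parental or empty-vector library, with adjusted p up to 0.156, and in 13 of 22 alternatives in all.

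CYFIP2 (ENSG00000055163, chr5:157266079-157395595, plus strand), a component of the WAVE actin regulator, was at 11.8, 10.2 and 9.18 CPM in parental libraries and at 16.9, 16 and 17.2 CPM in empty-vector libraries. With guide 1 it was at 13.7, 15.0 and 9.07 CPM, with guide 2 at 9.43, 13.4 and 9.90 CPM, and with both guides at 12.2, 11.6 and 11.4 CPM. Every empty-vector library was above the 12 others, and parental and edited libraries overlapped. The empty-vector shift was 0.71 ± 0.18 (SE, edgeR adjusted p 0.0428) and the edited mean was lower than the empty vector, at -0.52 ± 0.14 (edgeR adjusted p 0.0454). Both comparisons use the same empty-vector libraries, and both calls were lost on leaving out any 1 of the 3, with adjusted p up to 0.136 and 0.207. They were also lost on leaving out any 1 parental library or any 1 library with both guides.

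SUSD6 (ENSG00000100647, chr14:69611596-69715142, plus strand), a membrane protein also called DRAGO, separated the empty-vector libraries from those of every other genotype. It was at 19.7, 16.4 and 18.8 CPM in parental libraries and at 26.9, 26.3 and 36.2 CPM in empty-vector libraries. It was at 18.2, 17.2 and 16.6 CPM with guide 1, at 16, 20.0 and 15.9 CPM with guide 2, and at 19.3, 19.2 and 20.0 CPM with both guides. The edited libraries spanned the parental range, and all 3 empty-vector libraries lay above both. The empty-vector shift was 0.74 ± 0.13 (SE, edgeR adjusted p 0.0127) and was not called without parental replicate 2 (0.0661). The edited mean was lower than the empty vector, at -0.74 ± 0.11 (edgeR adjusted p 0.00149), a call that held in all 22 alternatives, and its difference from the mean of both controls, -0.38 ± 0.09, was not called (edgeR adjusted p 0.0503).

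FAS, CYFIP2 and SUSD6 were the 3 targets of 31 for which every empty-vector library was above every library of the other 4 genotypes. Over all tested genes, 4.3% showed this pattern. With guide 2 replicate 2 and parental replicate 2 left out there were 4, the fourth being AEN, beside 6.01% of all tested genes.

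The remaining cell-death targets were not called in either shift. TP53INP1, a nuclear cofactor that also acts in autophagy, was at 12.7 to 15.6 CPM in parental and at 19.7 to 22.8 CPM in empty-vector libraries. With guide 1 it was at 30.7, 32.3 and 12.2 CPM, so that replicate 3 was below every parental library. Its empty-vector estimate was 0.63 ± 0.30 (SE, edgeR adjusted p 0.267). The executioners themselves gave small estimates in the empty-vector shift: 0.04 ± 0.10 for the pore former BAX, 0.23 ± 0.18 for the BH3-only protein BBC3 (PUMA) and -0.03 ± 0.14 for the apoptosome scaffold APAF1. The nuclease AEN and the apoptosis inhibitor TRIAP1 gave 0.24 ± 0.10 and 0.19 ± 0.11. APAF1 ran the other way from most targets with guide 1, at 23.7, 22.2 and 34.3 CPM against 36.1 to 41.7 CPM in parental libraries, a log2 difference of -0.52 ± 0.14 that did not pass the test (edgeR adjusted p 0.141).

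Of the 5 genes that slow the cell cycle or growth, 1 was called in the empty-vector shift and all 5 had higher estimates (median 0.60). PLK3 (ENSG00000173846, chr1:44800225-44805990, plus strand), a stress-responsive polo-like kinase, was at 14.8, 11.8 and 13.5 CPM in parental libraries and at 20.8, 23.2 and 19.6 CPM in empty-vector libraries. With guide 1 it was at 21.1, 21.3 and 12.8 CPM, with guide 2 at 18.3, 15.8 and 17.8 CPM, and with both guides at 17.6, 16.5 and 18.4 CPM. All libraries but guide 1 replicate 3 were above the 3 parental ones. For PLK3, the empty-vector shift was 0.69 ± 0.17 (SE, edgeR adjusted p 0.0381) and was not called on leaving out any 1 parental or empty-vector library, with adjusted p up to 0.138. It was lost in 10 of 22 alternatives in all.

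The other genes of this role were more variable among replicates. ZMAT3, an RNA-binding zinc-finger protein, was at 110, 117 and 113 CPM in parental, at 188, 174 and 161 CPM in empty-vector, and at 147, 83.8 and 174 CPM in guide 2 libraries. Guide 2 replicate 2 was thus below every parental library while its replicates were above. The empty-vector estimate of ZMAT3 was 0.66 ± 0.23 (SE, edgeR adjusted p 0.123). GDF15, a secreted stress hormone, was low (2.84 to 8.31 CPM) and gave 0.60 ± 0.36. BTG2, which restrains cyclin D expression, gave 0.47 ± 0.19, and the kinase PLK2 gave 0.31 ± 0.19.

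The 4 genes of DNA repair and nucleotide supply had a median of 0.07 in the empty-vector shift and none was called. XPC and DDB2, which recognise damaged bases in nucleotide excision repair, gave -0.05 ± 0.19 and -0.01 ± 0.10, and the bypass polymerase POLH gave 0.15 ± 0.12. RRM2B, the p53-inducible subunit of ribonucleotide reductase, was the highest of the group at 0.34 ± 0.15 (SE, edgeR adjusted p 0.241). Its level was 116 ± 5.00 CPM (SD, n = 3) in parental libraries.

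Of the 5 genes of metabolism and redox, 2 were called in the empty-vector shift and all 5 had higher estimates (median 0.55). SESN1 (ENSG00000080546, chr6:108986437-109094819, minus strand) encodes a sestrin, an inhibitor of mTORC1. It was at 24.1, 20.2 and 21.8 CPM in parental libraries, at 34.1, 33.8 and 29.8 CPM in empty-vector libraries, at 26.5, 30.3 and 22.6 CPM with guide 1, at 18.4, 25.2 and 20.4 CPM with guide 2, and at 23.2, 23.1 and 22.2 CPM with both guides. Empty-vector libraries did not overlap the parental ones, and 1 guide 1 library reached their range. The empty-vector shift was 0.59 ± 0.13 (SE, edgeR adjusted p 0.0221), and the edited mean was lower than the empty vector, at -0.49 ± 0.10 (edgeR adjusted p 0.0115). The first call was lost without parental replicate 2 or 3 or without any 1 empty-vector library (adjusted p up to 0.097), and the second without empty-vector replicate 1 (0.0549).

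SESN2 (ENSG00000130766, chr1:28259527-28282491, plus strand), the leucine-sensing sestrin, was at 10.7, 9.87 and 10.7 CPM in parental libraries and at 15.1, 16 and 15.8 CPM in empty-vector libraries. With guide 1 it was at 14.8, 16 and 12.3 CPM, with guide 2 at 10.6, 12.1 and 10.9 CPM, and with both guides at 16.5, 14.1 and 13.9 CPM. Guide 2 libraries lay near the parental ones, while those of guide 1 and of both guides lay above them. For SESN2, the empty-vector shift was 0.61 ± 0.11 (SE, edgeR adjusted p 0.0127) and was not called without parental replicate 2 (0.0639) or empty-vector replicate 3 (0.055). SESN2 also responds to the amino acid stress factor ATF4. Of 10 ATF4-related genes, 0 were called in this comparison by edgeR (4.37% of all tested genes). There were 2 at an unadjusted p under 0.05 (19.8% of all tested genes). Their estimates, 5 higher and 5 lower, ran from -1.04 to 0.60, with a median log2 fold change of -0.02. The part of ATF4 in the SESN2 values was not tested. The oxidoreductase TP53I3, the fructose bisphosphatase TIGAR and the ferredoxin reductase FDXR gave 0.55 ± 0.30, 0.28 ± 0.17 and 0.29 ± 0.16 in the empty-vector shift. Of the TIGAR exon bases, 45.6% overlap other genes.

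**Figure D3:**
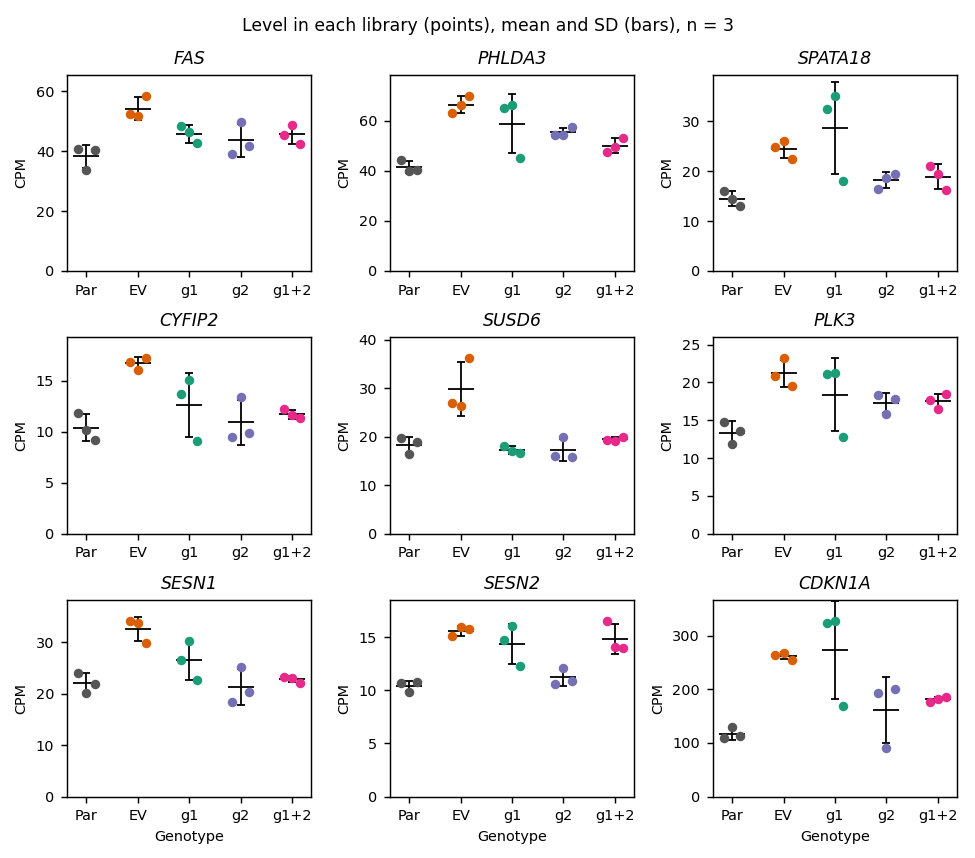
CPM of the 8 called targets and CDKN1A in each library. Par is parental, EV empty vector, g1 guide 1, g2 guide 2 and g1+2 both guides; points are libraries, the horizontal tick is the mean and bars are 1 SD (n = 3). FAS, CYFIP2 and SUSD6 have all 3 empty-vector points above every other point, and guide 1 replicate 3 lies below its replicates in each panel.

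Set against each control separately, the target estimates of the edited mean were mostly below the empty vector (22 of 31) and mostly above parental cells (27 of 31). Against the empty vector, the edited mean was called lower for 3 of 31 targets (CYFIP2, SUSD6 and SESN1) and higher for none, beside 6.43% of all tested genes called in either direction and 4.98% called lower. The median log2 fold change of the targets was -0.15, against 0.03 over all genes. Against parental cells, 0 of 31 were called by edgeR, beside 0.166% of all tested genes, and 11 had an unadjusted p under 0.05 (10 higher), beside 12.4% of all tested genes. DESeq2 called 3 in that comparison (PHLDA3, SPATA18 and SESN2, all higher; 2.23% of all genes) and voom with quality weights 22 (42.7%), and the median was 0.19 against -0.01 over all genes. Without guide 2 replicate 2, 8 targets were called against the empty vector (18.8% of all genes) and 8 against parental cells (13.1%). Without guide 1 replicate 3 these counts were 5 (7.15%) and 5 (1.91%), and without empty-vector replicate 1 the count against the empty vector was 1 (3.75%). With guide 2 replicate 2 and parental replicate 2 both left out they were 6 (22% of all genes) and 9 (24.6%). These comparisons share control libraries with the empty-vector shift and with each other.

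Taken line by line against the empty vector, SUSD6 was the 1 target called in every line. Guide 1 cells had it lower, at -0.80 ± 0.14 (SE, edgeR adjusted p 0.00699), as the only target called beside 5.88% of all tested genes. Guide 2 cells had it lower, at -0.80 ± 0.14 (edgeR adjusted p 0.00813), with SESN1 at -0.62 ± 0.13 (0.0187) and SESN2 at -0.49 ± 0.11 (0.0292), which makes 3 targets beside 3.94% of all tested genes. Cells with both guides had SUSD6 lower, at -0.64 ± 0.13 (edgeR adjusted p 0.0463), the only target called beside 0.962% of all tested genes. The last of these calls was lost in 14 of 21 alternatives, among them the removal of any 1 empty-vector library, any 1 parental library and any 1 library with both guides (adjusted p up to 0.175). With guide 2, the SESN2 call was lost on leaving out any 1 empty-vector library (adjusted p up to 0.11) and the SESN1 call on leaving out empty-vector replicate 1 (0.0576) or 2 (0.0522). Both were also lost on leaving out guide 2 replicate 1 (SESN1 0.0637, SESN2 0.0898) or 3 (0.0583 and 0.0814). Without guide 1 replicate 3 the numbers called against the empty vector were 3, 6 and 4 for guide 1, guide 2 and both guides (5.46%, 6.1% and 3.37% of all genes). Without guide 2 replicate 2 they were 4, 6 and 4 (18.1%, 14.5% and 6.7%). The guide 2 number was 1 without empty-vector replicate 1 or 2 or without guide 2 replicate 1 or 3. In a fit of only the guide 2 and empty-vector libraries, guide 2 had 0 targets called against the empty vector by edgeR, with 0.0794% of all genes called.

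Against parental cells no edited line had a target called by edgeR, and the estimates leaned higher. With guide 1, 28 of 31 estimates were higher, with a median of 0.34, and 19 targets had an unadjusted p under 0.05, of which 18 were higher. Over all genes 0.149% were called and 19.9% had an unadjusted p under 0.05. The 3 largest estimates were TNFRSF10C at 1.48 ± 0.43 (SE, edgeR adjusted p 0.166), SPATA18 at 1.00 ± 0.20 (0.0724) and TP53INP1 at 0.86 ± 0.30 (0.193). DESeq2 called 8 with guide 1 (3.68% of all genes) and voom with quality weights 26 (52.9%). With guide 2, 2 targets (PHLDA3 and PLK3) had an unadjusted p under 0.05, where 0.0516% of all genes were called and 7.37% had an unadjusted p under 0.05. DESeq2 called 0 there (0.785% of all genes) and voom 16 (32.5%). With both guides, 5 did (SESN2, FAS, PLK3, TP53I3 and PHLDA3, all higher), where 0.195% of all genes were called and 9.98% had an unadjusted p under 0.05. DESeq2 called 1, SESN2 (2.1% of all genes), and voom 15 (21.3%). Without guide 2 replicate 2, edgeR called 1 target with guide 2 and 2 with both guides (5.96% and 2.62% of all genes), and without guide 1 replicate 3 it called 1 with both guides (0.301%).

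The guide 1 line was not uniform. Of the 31 targets, 29 were above the parental mean in replicate 1, 29 in replicate 2 and 19 in replicate 3. In the parental libraries themselves these numbers were 24, 11 and 7. Over all tested genes the median log2 difference from the parental mean was 0.002, 0.009 and -0.003 in the guide 1 libraries. CCNG1 was at 335 and 315 CPM in the first 2 replicates and at 237 CPM in the third, and RRM2B at 218, 212 and 152 CPM. EDA2R stood at 25.7, 27.6 and 17.6 CPM. Without guide 1 replicate 3, 16 targets were called against parental cells, 15 of them higher and APAF1 lower, with 7.64% of all genes called. Without guide 2 replicate 2, a library that is not part of that comparison and enters through the shared estimate of spread, 14 were called (13 higher), with 14.5% of all genes called. Guide 1 against guide 2 called 0 of 31 targets by edgeR, beside 0.0401% of all genes. There were 13 at an unadjusted p under 0.05 (12 higher with guide 1), beside 15.2% of all genes, and DESeq2 called 0 (1.17% of all genes) and voom 22 (20.2%). Without guide 1 replicate 3 the edgeR count was 6, beside 3.31% of all genes.

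Proliferation genes were lowest in the libraries where the targets were highest. The median of 10 proliferation genes, in log2 CPM relative to the parental mean, was -0.84, -0.83 and -0.49 in the empty-vector libraries and -0.99 and -0.95 in guide 1 replicates 1 and 2. It lay between -0.19 and 0.05 in the other 10 libraries. The median of the 31 targets on the same scale was 0.38, 0.36 and 0.27 in the empty-vector libraries and 0.48 and 0.60 in guide 1 replicates 1 and 2, against -0.06 to 0.17 in the other 10. In the empty-vector shift all 10 proliferation genes had lower estimates, all 10 at an unadjusted p under 0.05 (19.8% of all tested genes). Of these, TOP2A (-0.91 ± 0.20, SE, edgeR adjusted p 0.0264) and CDK1 (-0.73 ± 0.18, 0.0399) were called, beside 4.37% of all tested genes. In the edited mean all 10 were higher than the empty vector, 8 at an unadjusted p under 0.05 (3592 of 17457 tested genes) and 2 called (6.43%). Against parental cells all 10 were lower, 0 of them at an unadjusted p under 0.05 (12.4%). The part of proliferation in the values of the p53 targets was not tested. In bulk RNA, fewer cells with high expression and less RNA per cell cannot be told apart.

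**Figure D4:**
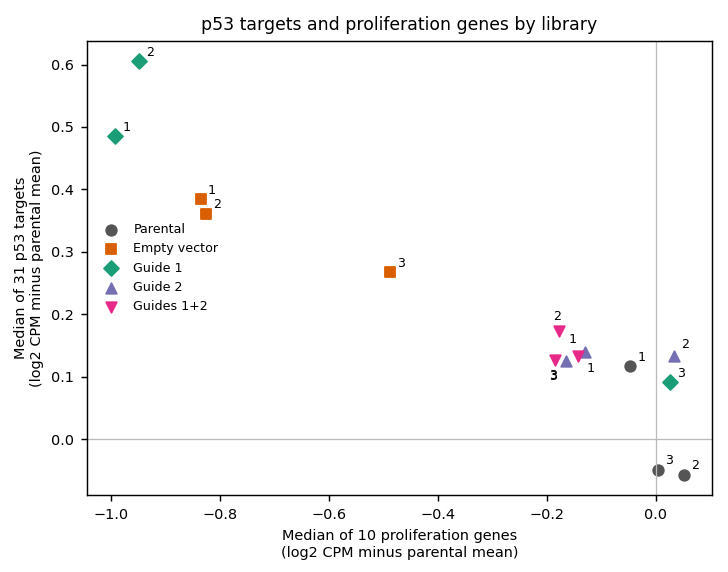
Each point is a library, numbered by replicate. The x axis is the median of 10 proliferation genes and the y axis the median of the 31 p53 targets, both as log2 CPM minus the parental mean. The 3 empty-vector libraries and guide 1 replicates 1 and 2 lie at the upper left, and the other 10 lie near the parental ones.

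Regulators of the pathway were read from a separate list. MDM4, the partner of MDM2 that blocks p53 activity, was at 50.6 to 61.7 CPM in parental and at 36.6 to 45.1 CPM in empty-vector libraries, with -0.39 ± 0.11 (edgeR adjusted p 0.0603). CDKN2A, which encodes the MDM2 inhibitor ARF, had 0 counts in all 15 libraries, which allows at most 0.038 to 0.065 CPM by library, and was not tested. Of 21 regulators tested, the damage kinase ATM was the 1 called in the empty-vector shift, lower, at -0.46 ± 0.11 (edgeR adjusted p 0.0401), beside 4.37% of all tested genes, and the median of the list was -0.11. In the edited mean against the empty vector the acetyltransferase KAT5 was the 1 called, higher by 0.23 ± 0.06 (edgeR adjusted p 0.0421), beside 6.43% of all tested genes.

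A further 25 p53 targets, listed apart from the 31, were read in the same fit. CDKN1A, the cyclin-dependent kinase inhibitor p21, was at 109, 130 and 113 CPM in parental and at 264, 269 and 255 CPM in empty-vector libraries. It was at 325, 327 and 168 CPM with guide 1, at 194, 90.0 and 200.2 CPM with guide 2, and at 176, 182 and 186 CPM with both guides. All edited libraries but guide 2 replicate 2 were above every parental library. In the empty-vector shift CDKN1A was higher by 1.20 ± 0.28 (SE, edgeR adjusted p 0.0304), and the edited mean was above parental by an uncalled 0.79 ± 0.23 (edgeR adjusted p 0.217). Of the 25, 24 had higher estimates in the empty-vector shift (median 0.56) and 5 were called, all higher, beside 2.84% of all tested genes called higher, with the ceramidase ACER2 at 1.21 ± 0.24, the cytokine LIF at 1.57 ± 0.34 and IER5 at 0.35 ± 0.08 among them. The fifth was the transcriptional repressor PRDM1 at 1.22 ± 0.29.

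In the edited mean against the empty vector, 4 of the same 25 were called, all lower, beside 4.98% of all tested genes called lower: ACER2 (-1.09 ± 0.18), PRDM1 (-1.18 ± 0.22), SFN (-1.20 ± 0.28) and PERP (-1.28 ± 0.30; edgeR, adjusted p at most 0.0235). SFN and PERP are also known targets of p63 in epithelia. Their levels were high where TP63 was high: PERP was at 564 CPM in guide 2 replicate 2, where TP63 was at 75.8 CPM, and at 152 and 171 CPM in the other guide 2 libraries, where TP63 was at most 0.07 CPM. The part of TP63 in these values was not tested. In the edited shift from the mean of both controls, 0 of these 25 were called by edgeR, beside 1.51% of all tested genes. There were 8 at an unadjusted p under 0.05, beside 15.8%, and the median was -0.06.

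In the empty-vector shift the share of all genes called, 4.37% in the full fit, changed with single libraries. The number of targets called there changed as well, and is no result about the targets alone. Without parental replicate 2 it was 1 (PHLDA3), beside 0.809% of all genes. It was 5 without parental replicate 1 and 4 without parental replicate 3. It was 4 without empty-vector replicate 1 or 2 and 2 without empty-vector replicate 3. Leaving out any 1 library with both guides gave 5, and leaving out guide 2 replicate 2 gave 13, beside 13.9% of all genes. With guide 2 replicate 2 and parental replicate 2 both left out, 10 were called, which included all 8 of the full fit, beside 14.6% of all genes.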

How the data were processed

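The authors deposited whole-number read counts per gene and a table of CPM, counts scaled to the library total, which equal CPM recomputed from the deposited counts to within 4.91e-11. Trim Galore 0.6.0, STAR 2.7.8a and GRCh38 are named in the submitters' processing notes. The counting program, its annotation and its use of strand are not given in the sources used here. Libraries were made with a KAPA mRNA kit, per the labels.

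Counts were tested with edgeR 4.0.16 (R 4.3.3): filterByExpr by genotype, TMM scaling (factors 0.9725 to 1.017), 1 group-means model over 15 libraries with 10 residual degrees of freedom, two-sided quasi-likelihood tests, and Benjamini-Hochberg adjustment over 17457 genes. A gene was called at an adjusted p under 0.05, and each SE was derived from the size of the log2 fold change and the F statistic (change over root F). Library values on a log2 scale used a prior count of 2. Alternatives were DESeq2 1.42.0, voom with sample quality weights (limma 3.58.1), RLE scaling, a replicate block, no filter, a fit of only the groups compared, and leaving out every library singly. Removal of guide 2 replicate 2 with parental replicate 2 was added after the data were seen. Promoter windows and patterns of separate groups were given no test.

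The targets, the other lists and their roles were chosen with earlier results of these data known. Library values and full statistics are given for targets called in any comparison with a control, and for NF1, MDM4, CDKN2A and CDKN1A. From each other list, at most 4 further called genes are named in the empty-vector shift and in the edited mean against the empty vector. Calls within those lists in single edited lines are not described. A gene that the rule names is not reported here.

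Replicate numbers come from the labels. Deviations of equal-numbered libraries correlated at over 0.1 in every pair only between guide 1 and the empty vector (0.136 to 0.28), where the replicate block left the count of called targets at 1. Replicate pairs of every genotype differed beyond sampling noise, so none was counted as 1 library deposited more than once. In simulated counts for the comparison of empty vector with parental (17185 genes, 200 changed 2-fold), 51.5% of changed genes were recovered and 3.74% of calls were false. The called targets changed less, by 1.45-fold to 1.72-fold, and no outlying library was simulated, so recovery at those sizes was not measured. Limits from counts of 0 use 3 counts and cover counting error only. Promoter sequences are from RefSeq (GRCh38.p14), and plots were drawn with matplotlib 3.10.9.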

Additional observations from a re-analysis of the deposited data

How the results depend on the processing

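The direction of all 16 single-target results held in the 347 alternatives run for them. Of these alternatives, 261 stayed on the same side of the threshold and 86 lost the call. The 16 were chosen because they were called in these data. The alternatives refit the same libraries, and many drop 1 outside the groups compared, so a reversed direction could hardly arise. The share of all genes called also moved between settings, so counts of called targets are no result about the targets alone. The number of targets called moved more than the directions did, and the cause was not tested. In the empty-vector shift (8 called) it was 5 with the replicate block and 22 with voom with sample quality weights. In the edited mean against both controls (0) it was 1 without the filter on low counts, 1 with DESeq2, 17 with voom and 8 with guide 2 replicate 2 and parental replicate 2 left out together. In the edited mean against the empty vector (3) it was 5 with DESeq2, 13 with voom and 6 with those 2 libraries left out. Against parental cells (0) it was 3, 22 and 9 in the same settings. Guide 1 against the empty vector (1) gave 2 with DESeq2, 17 with voom and 2 with only the groups compared. Guide 2 against the empty vector (3) gave 5, 13 and 0. Both guides against the empty vector (1) gave 0 with the replicate block, 4 with DESeq2, 15 with voom and 12 with only the groups compared. Against parental cells (0 in each line), guide 1 gave 2 without the filter, 8 with DESeq2 and 26 with voom. Guide 2 gave 16 with voom, and both guides gave 1 with DESeq2 and 15 with voom. Guide 1 against guide 2 (0) gave 22 with voom.

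On leaving out 1 library in turn, the counts ran from 1 to 13 in the empty-vector shift, from 0 to 4 in the edited mean against both controls, from 1 to 8 against the empty vector and from 0 to 8 against parental cells. They ran from 1 to 4, 1 to 6 and 0 to 4 for guide 1, guide 2 and both guides against the empty vector. Against parental cells they ran from 0 to 16, 0 to 1 and 0 to 2, and for guide 1 against guide 2 from 0 to 6. The share of all genes called moved with these fits as well, so the ranges are no result about the targets alone. A fit of only the groups compared is the main model itself for the edited mean against both controls and was not run there. Equal replicate numbers of empty-vector and parental libraries correlated at 0.126 on average (-0.106 to 0.251), and other numbers at -0.066. Whether libraries of equal number share anything more than the number was not tested. The replicate block changed no other call count than those given above by over 1.5 times. TNFRSF10C, which reached at most 2.59 CPM, had the largest standard error of the 31 targets in both shifts.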
